A study of Homo sapiens with 12 samples.

Results

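The BCL2 family controls whether the outer membrane of the mitochondrion stays closed, and 10 of its genes were followed here in KP4, a human pancreatic cancer cell line. They were the rows of the normalized count table whose gene symbol was BCL2, BCL2L1, MCL1, BAX, BAK1, BBC3, PMAIP1, BCL2L11, BID or BAD, which is 10 of 36601 genes in all. The rule itself uses no measured value, but the genes were proposed with earlier results of these data known. By role, 3 are pro-survival (BCL2, BCL2L1, MCL1), 2 are effectors (BAX, BAK1) and 5 are BH3-only (BBC3, PMAIP1, BCL2L11, BID, BAD). All 10 passed the filter on low values, a mean of at least 10 normalized counts. On hg38, as the table places them, the pro-survival genes span chr18:63123346-63320128 (BCL2), chr20:31664452-31723989 (BCL2L1) and chr1:150574551-150579738 (MCL1), all on the minus strand. The effectors span chr19:48954815-48961798 on the plus strand (BAX) and chr6:33572547-33580293 on the minus strand (BAK1). Of the BH3-only genes, PMAIP1 at chr18:59899948-59904306 and BCL2L11 at chr2:111119378-111168445 lie on the plus strand, and BBC3 at chr19:47220822-47232766, BID at chr22:17734138-17774770 and BAD at chr11:64269830-64284704 on the minus strand.

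The cells were treated for 24 h with DMSO, the vehicle, with 10 mM metformin (Met), with 5 nM FK866 (FK), or with both drugs (Met+FK). Metformin inhibits complex I of the respiratory chain, and FK866 inhibits NAMPT, the rate-limiting enzyme of the NAD salvage pathway. FK866 was dissolved in DMSO and metformin in medium, and whether the Met wells also received DMSO is not stated in the sources used here. From this 1 cell line 12 libraries, 3 for each treatment, were sequenced after removal of ribosomal RNA. The sources do not say that the 3 libraries came from separate cultures, so p-values measure the spread between these samples, which may be technical.

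As background, the pro-survival proteins BCL2, BCL-XL (from BCL2L1) and MCL1 hold the effectors BAX and BAK in check. When BAX and BAK are released they form pores that let cytochrome c out of the mitochondrion, after which the apoptosome activates caspases. The BH3-only proteins sense damage or stress, bind the groove of the pro-survival proteins and, for some of them, engage BAX and BAK directly. PUMA (from BBC3) and BIM (from BCL2L11) bind every main pro-survival protein, whereas NOXA (from PMAIP1) prefers MCL1, and BAD prefers BCL2 and BCL-XL. Much of the control of this family acts on protein turnover and phosphorylation, which mRNA counts do not measure.

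Each library held between 30667735 and 41052203 counted read pairs, with a median of 34767232. Replicates of a treatment differed by more than sampling noise, so all 12 were used as separate samples. Values below are normalized counts, that is, read pairs divided by a size factor per library. In bulk RNA, fewer cells with a transcript and less of it per cell cannot be told apart. Of 9 markers of pancreatic ductal epithelium, 7 had a mean of at least 10 normalized counts. EPCAM was under that mean and CFTR was at 0, KRT19 lay between 14.6 and 75.0, and the mesenchymal gene VIM reached 121917. KRT18, SOX9 and KRT8 were the ductal markers with the highest counts. The summed acinar markers, 5 genes, lay between 0 and 2.47 normalized counts, and the summed endocrine markers, 4 genes, between 0 and 2.30. Summed marker levels differed between treatments. The 9 ductal genes summed to 25327 to 26266 in DMSO, 16512 to 19694 in Met and 19378 to 22878 in FK. Most of this sum was KRT18, with means of 18307, 10421 and 13635. By limma-trend at adjusted p under 0.05, CDH1 and SOX9 rose and KRT8, KRT18 and KRT19 fell with metformin. Over all genes tested, 24.9% rose and 25.9% fell. With FK866 SOX9 rose and KRT8 and KRT18 fell, where 11.3% and 9.84% of all genes did. The summed level of 5 fibroblast genes was 169 to 254 in DMSO, 85.0 to 120 in Met and 267 to 345 in FK, with DCN and LUM under the mean of 10, and the summed level of 4 immune genes was 214 to 317 and 153 to 187, from PTPRC almost alone. Among 3 endothelial genes the summed level was 42.4 to 56.3 in DMSO and 21.9 to 35.5 in Met. Immune and endothelial sums in FK overlapped those of DMSO. The part of these shifts in the results was not tested.

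In vehicle-treated cells MCL1, BAX and BCL2L1 were the highest of the 10 per kb of canonical transcript. Divided by the length of the canonical transcript, the DMSO level was 2158 ± 138 normalized counts per kb for MCL1 (SD, n = 3), 2136 ± 173 for BAX and 1984 ± 60.2 for BCL2L1. The ranges of neighbours in this order overlapped. BAD followed at 1199.9 ± 77.1 per kb, then BAK1 at 583 ± 25.8 and BID at 527 ± 29.0. The ranges of BAK1 and BID overlapped. Lower still were PMAIP1 at 279.8 ± 43.2 per kb and BCL2L11 at 201 ± 26.0, which did not overlap. BBC3, at 46.3 ± 6.58, and BCL2, at 38.7 ± 3.76, were the lowest of the 10 and overlapped. Of the 3 pro-survival members BCL2 thus had the least mRNA in these cells, and it remained the lowest or the next to lowest of the 10 in every treatment. With metformin the level of PMAIP1 was 544 ± 72.6 per kb, in a range that overlapped that of BAK1 (454 ± 29.3) and lay above that of BID (406 ± 11.9), both of which it lay below in DMSO. With the length of all exons in place of the canonical transcript, the order of the first 3 in DMSO was MCL1, BCL2L1, BAX. Their means were then 1370, 1217 and 656 per kb, with BAD at 653 and BAK1 at 572, so BAX stood near BAD.

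**Figure D1:**
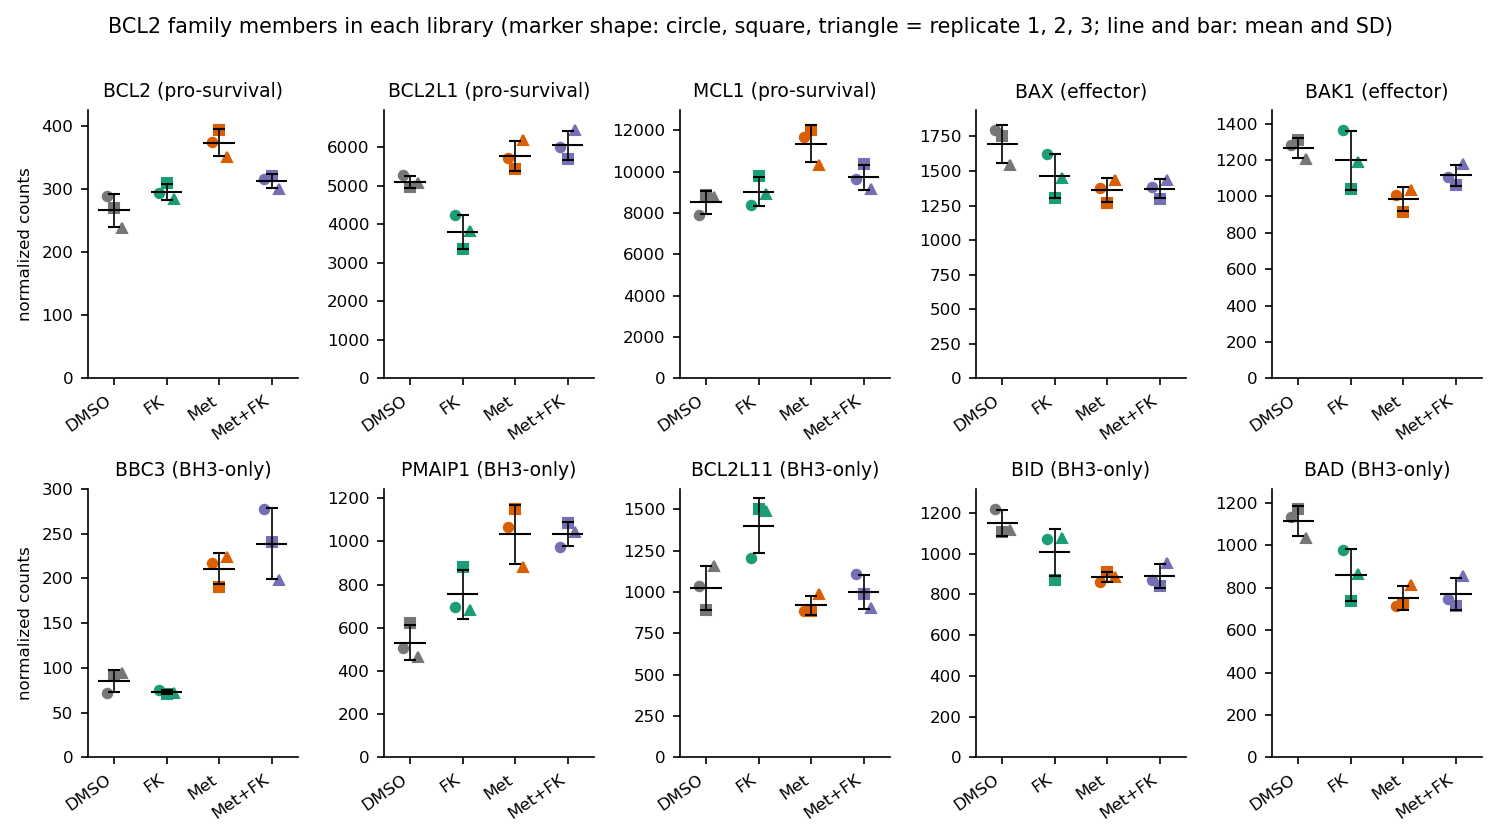
Normalized counts (vertical axis, linear, from 0) of the 10 genes in the 12 libraries, by treatment; points are libraries, with marker shape for the replicate number, and the line and bar are the mean and SD of 3. BBC3 and PMAIP1 stand higher in all 6 libraries with metformin than in all 3 DMSO libraries, and BCL2L1 is lowest in the 3 FK libraries.

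Metformin against DMSO asks what the drug did to the family. Metformin raised the mRNA of the BH3-only genes BBC3 and PMAIP1 the most, by 2.46-fold and 1.94-fold, and it also raised the pro-survival genes BCL2 and MCL1, by 1.4-fold and 1.33-fold. Both effectors fell, as did the BH3-only genes BID and BAD. So 8 of 10 members passed the test, 4 higher and 4 lower, where 50.9% of all 15376 genes tested passed, 24.9% higher and 25.9% lower. The median log2 fold change of the 10 was 0.0118, against 0.0125 over all genes tested. Only BBC3 and PMAIP1 also exceeded the study's threshold of 1.5-fold, against 23% of all genes. A gene passes here if limma-trend gives it an adjusted p below 0.05 (Benjamini-Hochberg, over all genes tested). This is the test behind every adjusted p for which no other tool is named, and log2 fold changes are on the log2(normalized count + 1) scale. The 3 libraries of each treatment did not overlap for 5 members that were higher and 4 that were lower, where 27.5% and 29.4% of all genes did so.

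Among the pro-survival genes, BCL2, the founder of the family, had 289.7, 270.0 and 238 normalized counts in the DMSO libraries and 374, 394 and 351 in the Met libraries. Every Met library lay above every DMSO library, and the log2 fold change was 0.49 ± 0.10 (SE), adjusted p = 0.000968. MCL1, a protein with a short half-life whose level follows its synthesis closely, had 7899, 8896 and 8781 in DMSO and 11699, 12039.8 and 10343 in Met. Its groups did not overlap either, with a log2 fold change of 0.41 ± 0.08 (SE) and adjusted p = 0.000769. BCL2L1, the gene of BCL-XL, had 5279, 4977 and 5067 in DMSO and 5723, 5428 and 6191 in Met. All 3 Met libraries were above the DMSO libraries, but the log2 fold change of 0.18 (95% interval -0.01 to 0.36) did not pass, adjusted p = 0.102.

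Of the effectors, BAX, which moves from the cytosol to the mitochondrion when activated, had 1799, 1754 and 1542 normalized counts in DMSO and 1379, 1268 and 1436 in Met. The groups did not overlap, and the log2 fold change was -0.32 ± 0.09 (SE), adjusted p = 0.0112. This call was lost without DMSO replicate 1 or without Met replicate 2 (highest adjusted p = 0.0547), and with all libraries scaled to the same total (log2 fold change -0.20, adjusted p = 0.0773). BAK1, the effector that resides at the mitochondrial membrane, had 1284, 1310.4 and 1203 in DMSO and 1009.6, 914 and 1034 in Met. Every Met library lay under every DMSO library, and BAK1 fell by 0.36 ± 0.10 (SE) on the log2 scale, adjusted p = 0.00659.

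The BH3-only genes divided. BBC3, the gene of PUMA, is known as a target of CHOP under stress of the endoplasmic reticulum. It had 71.6, 90.6 and 94.1 normalized counts in DMSO and 217, 191 and 224 in Met. The lowest Met library had more than the highest DMSO library, and the log2 fold change of 1.30 ± 0.15 (SE) had an adjusted p of 6.58e-06. PMAIP1, the gene of NOXA, which is known as a target of ATF4, had 507, 623 and 464 in DMSO and 1064, 1152 and 882 in Met. Again the groups did not overlap, with a log2 fold change of 0.96 ± 0.13 (SE) and adjusted p = 3.21e-05.

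BID, which is cleaved by caspase-8 and so joins the death receptor route to the mitochondrial one, went the other way. It had 1221, 1107 and 1116 normalized counts in DMSO and 858, 909.9 and 887 in Met. These groups did not overlap, and the log2 fold change was -0.37 ± 0.09 (SE), adjusted p = 0.00403. BAD, which survival kinases keep inactive by phosphorylation, had 1134, 1174 and 1035 in DMSO and 713, 723 and 816 in Met. Without overlap between the groups, it had the largest fall of the 10, a log2 fold change of -0.57 ± 0.11 (SE), adjusted p = 0.000606. BAD and its neighbour GPR137 on the opposite strand share 404 bases of exon and the strand setting of the counting is not given, so their reads may be mixed. GPR137 itself had a log2 fold change of -0.21, adjusted p = 0.101. BCL2L11, the gene of BIM, had 1035, 891 and 1155 in DMSO and 885, 884 and 988 in Met. The groups overlapped, and the log2 fold change of -0.15 (95% interval -0.40 to 0.09) did not pass, adjusted p = 0.281. BCL2L11 shares 727 bases of exon with MIR4435-2HG on the opposite strand, so their reads may be mixed too. The mean of MIR4435-2HG in Met was 0.739 times that in DMSO.

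The GC content of transcripts moved with the treatments, and 1 processing step that removes it altered several of these values. Each library's slope of log2 values on GC content, per 10 percentage points, lay between 0.0429 and 0.196 in DMSO, between -0.139 and 0.0801 in Met, between -0.245 and 0.00266 in FK and between -0.0481 and 0.0631 in Met+FK. With this trend removed, 9 members passed in Met against DMSO, and 57.2% of all genes. BCL2L1 then passed as higher (0.32, adjusted p = 3.74e-05), BCL2L11 passed as lower (-0.30, adjusted p = 0.00885), and BAX no longer passed (-0.12, adjusted p = 0.0812). The log2 fold changes of BCL2, BAK1 and BAD were nearer 0, at 0.27, -0.21 and -0.37, and still passed. BBC3 and PMAIP1 kept values of 1.46 and 0.74. BCL2, MCL1, BAK1, BBC3, PMAIP1, BID and BAD, 7 of the 8 that passed, did so without each of the 6 libraries in turn and under each other way of processing the values that was tried.

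**Figure D2:**
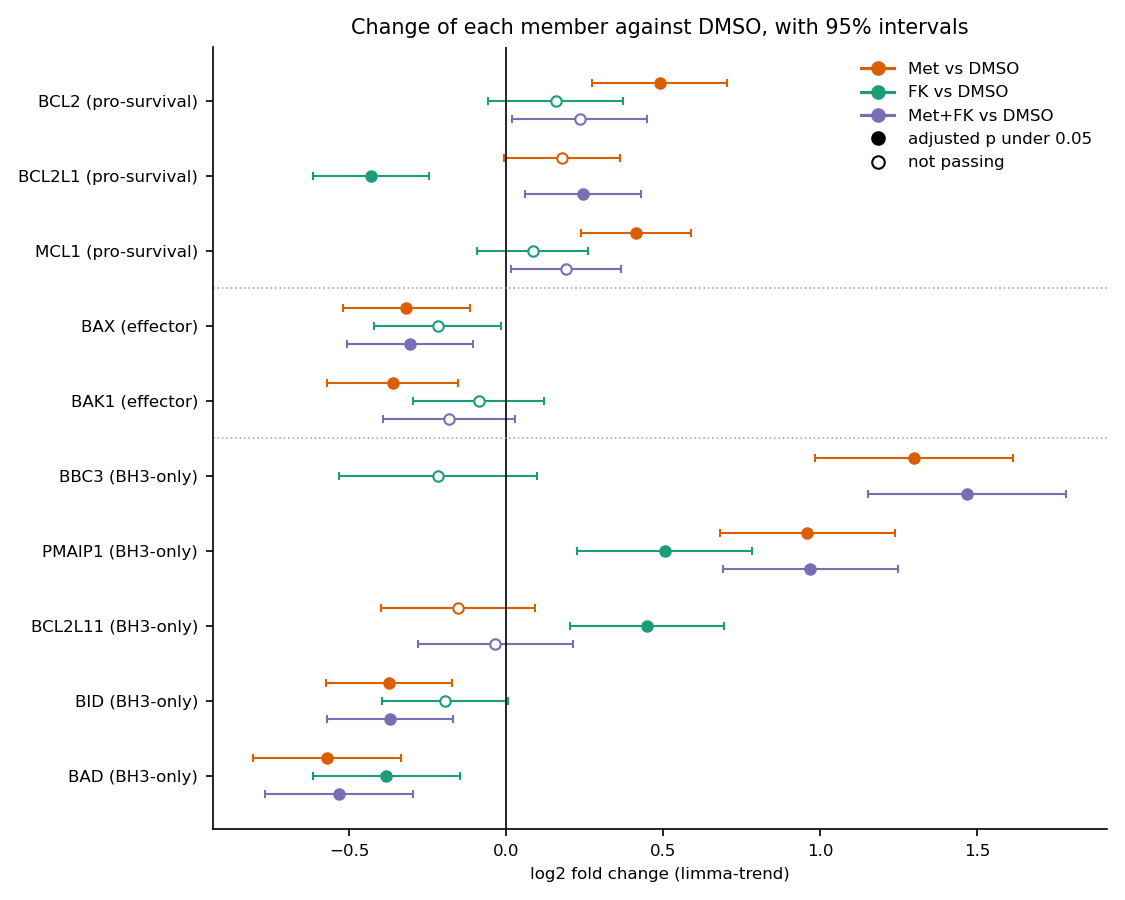
Log2 fold changes against DMSO (horizontal axis) with 95% intervals for the 10 genes (rows, by role), in Met, FK and Met+FK, which share the 3 DMSO libraries. Filled points have an adjusted p under 0.05. BBC3 and PMAIP1 lie to the right with metformin, with or without FK866, and BCL2L1 lies to the left with FK866 alone.

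FK866 against DMSO asks what FK866 did alone. It lowered BCL2L1, to 0.742 times its DMSO level, and BAD, to 0.768 times, and it raised PMAIP1 and BCL2L11, by 1.42-fold and 1.36-fold. These 4 of 10 members passed, where 21.1% of all genes tested did, 11.3% higher and 9.84% lower. The largest rise, 1.42-fold for PMAIP1, was under the 1.5-fold that 3.49% of all genes exceeded. The median log2 fold change of the 10 was -0.14, against -0.0158 over all genes. The groups did not overlap for 2 members that were higher and 3 that were lower, where 17.2% and 21.6% of all genes did so. The DMSO libraries are the same as in the comparison of metformin.

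BCL2L1 had 4245, 3352 and 3822 normalized counts in the FK libraries. Every one of these lay under the lowest DMSO library, and the log2 fold change was -0.43 ± 0.09 (SE), adjusted p = 0.0136. It was the only pro-survival member to pass, since BCL2 had 294, 309.6 and 285 and MCL1 had 8400.2, 9793 and 8935 in FK, ranges that overlapped those of DMSO. Their log2 fold changes were 0.16 (95% interval -0.06 to 0.37) and 0.08 (-0.09 to 0.26). The effectors did not pass, with BAX at 1625, 1308 and 1452 and BAK1 at 1367, 1039.5 and 1187, and log2 fold changes of -0.22 (95% interval -0.42 to -0.02) and -0.09 (-0.30 to 0.12).

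PMAIP1 had 696, 883 and 683 normalized counts in FK, each above the highest DMSO library, and a log2 fold change of 0.51 ± 0.13 (SE), adjusted p = 0.0252. BCL2L11 had 1209, 1506 and 1489, also above every DMSO library, with 0.45 ± 0.12 (SE) and adjusted p = 0.0246. BCL2L11 rose with FK866 and did not pass with metformin, and its log2 fold change in Met against FK was -0.60, adjusted p = 0.000866. It shares 727 bases of exon with MIR4435-2HG on the opposite strand, which fell by 0.26 on the log2 scale with FK866 (adjusted p = 0.0353). The pair moved in opposite directions with FK866, while both had lower means in Met than in DMSO. The part of shared reads in these changes was not tested. The other shared exons, 1735 bases of BCL2L1 with the antisense gene ABALON and 328 bases of MCL1 with ADAMTSL4-AS1, belong to genes with means of 26.9 and 74.8 normalized counts. BAD had 979.7, 736 and 864, under every DMSO library, and fell by 0.38 ± 0.11 (SE), adjusted p = 0.0322. BBC3 had 75.5, 70.8 and 72.3 and BID 1072, 872 and 1074, with log2 fold changes of -0.22 (95% interval -0.53 to 0.10) and -0.20 (-0.40 to 0.01) that did not pass.

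These FK866 calls rested on few libraries and on the spread borrowed from the other treatments. With only the DMSO and FK libraries in the fit, 0 of 10 passed by limma-trend, where 0.989% of all genes did. In that fit 4 had an unadjusted p under 0.05, as did 5483 of all 15376 genes. edgeR and DESeq2 on the recovered read pairs of all libraries each called 4, where they called 19.7% and 26.9% of all genes. Without DMSO replicate 1, 0 of 10 passed by limma-trend, where 0.865% of all genes did. There 5 had an unadjusted p under 0.05, as did 4211 of all genes. Without FK replicate 2, 1 passed, where 1.53% of all genes did. Without DMSO replicate 3 or FK replicate 3, 2 did, where 2.47% and 13.8% of all genes passed. BCL2L1 kept its call in 5 of 6 such fits, with adjusted p = 0.0743 without DMSO replicate 1. PMAIP1 and BCL2L11 kept theirs in 3 of 6, and BAD in 1 of 6. Every FK library had a lower slope on GC content than every DMSO library. The genes that fell, BCL2L1 and BAD, have a GC content of 56.6% and 65.8%, against 36.7% for PMAIP1 and 45.5% for BCL2L11, which rose. The members that did not pass lie at both ends, with BCL2, MCL1 and BID at 44.4%, 45.1% and 48.0%. BAK1, BAX and BBC3 are at 58.6%, 60.8% and 69.7%. The part of GC content in these calls was not tested. With the GC trend removed, BCL2L1 (-0.26, adjusted p = 0.00581) and BCL2L11 (0.32, adjusted p = 0.0331) passed, and PMAIP1 (0.19, adjusted p = 0.0769) and BAD (-0.13, adjusted p = 0.199) did not, where 10.9% of all genes passed. The log2 fold changes of 5 members that had not passed changed sign, to -0.0429 for BCL2, -0.0383 for MCL1, 0.0125 for BAX, 0.11 for BAK1 and 0.0104 for BBC3, and did not pass. When the uncorrected values were blocked by replicate number, BAX also passed, adjusted p = 0.0329, as did 44.6% of all genes. With the block and the GC trend removed, PMAIP1 passed, adjusted p = 0.0451, and BAD did not, adjusted p = 0.152.

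With both drugs, the BH3-only genes BBC3 and PMAIP1 were again higher than in DMSO, by 2.77-fold and 1.96-fold. In Met+FK 6 of 10 members passed, BCL2L1, BBC3 and PMAIP1 higher and BAX, BID and BAD lower, where 52.2% of all genes tested passed, 26.1% in each direction. BBC3 had 278, 241 and 198 normalized counts, above every DMSO library, with a log2 fold change of 1.47 ± 0.15 (SE), adjusted p = 1.46e-06. PMAIP1 had 975, 1084 and 1042, with 0.97 ± 0.13 (SE) and adjusted p = 2.41e-05. These were the 2 members over 1.5-fold, against 25.1% of all genes.

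BCL2L1, which was lower with FK866 alone, had 6004, 5706 and 6459 in Met+FK, above every DMSO library, with 0.24 ± 0.09 (SE) and adjusted p = 0.0282. That call was kept in 2 of 6 fits without 1 library, and was lost without DMSO replicate 2 or 3 and without Met+FK replicate 1 or 3. BCL2 had 316, 321 and 299.5 and MCL1 9641, 10376 and 9182, above every DMSO library in both genes. Their log2 fold changes of 0.23 (95% interval 0.02 to 0.45, adjusted p = 0.0633) and 0.19 (0.02 to 0.37, adjusted p = 0.0634) did not pass. Both passed with edgeR (adjusted p = 0.04 and 0.0353), with TMM scaling and with equal library totals, but not with DESeq2 (adjusted p = 0.0813 and 0.0755) or with the GC trend removed (adjusted p = 0.734 and 0.243).

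BAX had 1383, 1298 and 1434 normalized counts in Met+FK and fell by 0.31 ± 0.09 (SE), adjusted p = 0.0135, a call lost without DMSO replicate 1 or without Met+FK replicate 2. BAK1 had 1104, 1065 and 1179.5 and did not pass, at -0.18, adjusted p = 0.134. BID had 872, 840.1 and 953 and BAD 747, 712 and 854. Both were under every DMSO library, with -0.37 (adjusted p = 0.0041) and -0.53 (adjusted p = 0.000937). BCL2L11, at 1110.1, 988 and 904, overlapped DMSO, with -0.03 and a 95% interval of -0.28 to 0.21.

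Met+FK against Met asks what FK866 added once metformin was present. By limma-trend, 0 of 10 members passed, where 0.0976% of all genes tested did, which is 15 genes. At an unadjusted p under 0.05 there were 2 members, BCL2 and MCL1, both lower, and 6.84% of all genes. edgeR and DESeq2 on the recovered read pairs called 0 members each, where they called 0.104% and 0.475% of all genes. All 10 log2 fold changes lay between -0.26 for BCL2 and 0.18 for BAK1, and their 95% intervals between -0.47 and 0.48. Those of BCL2 (-0.47 to -0.04) and MCL1 (-0.40 to -0.05) did not include 0, before adjustment over all genes. BCL2, at 299.5 to 321 in Met+FK, was under every Met library (351 to 394), with a log2 fold change of -0.26 ± 0.10 (SE) and adjusted p = 0.656. BAK1 was above every Met library, with 0.18 ± 0.10 (SE) and adjusted p = 0.779. These were the 2 members without overlap between the groups, where 13.4% of all genes had none. MCL1 had a log2 fold change of -0.22 ± 0.08 (SE), adjusted p = 0.587. With the GC trend removed and the replicate number as a block it passed as the only member, at -0.21 and adjusted p = 0.0164, where 3.39% of all genes passed. The log2 fold changes of PMAIP1, BID and BAX were 0.00924, 0.00399 and 0.0123.

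The interaction, which is the FK866 change in metformin-treated cells less the FK866 change in cells without metformin, passed for 0 of 10 members by limma-trend, where 0.0585% of all genes tested passed. At an unadjusted p under 0.05 it held for 5 members, BCL2, BCL2L1, MCL1, PMAIP1 and BAD, and for 30.5% of all genes. edgeR called 0 members and DESeq2 called 1, BCL2L1, where they called 0.065% and 5.67% of all genes. For BCL2L1 the effect of FK866 was -0.43 without metformin and 0.07 with it, an interaction of 0.50 ± 0.12 (SE), adjusted p = 0.106. With the replicate number as a block 5 members passed, where 32% of all genes did. These were BCL2L1 (adjusted p = 0.00507), PMAIP1 (0.0103), MCL1 (0.019), BCL2 (0.0212) and BAD (0.0327). With the block and the GC trend removed only BCL2L1 did, at 0.29, adjusted p = 0.0127, where 6.94% of all genes did. PMAIP1 went from 0.51 without metformin to 0.01 with it, an interaction of -0.50 ± 0.18 (SE), adjusted p = 0.117. BCL2L11 went from 0.45 to 0.12, an interaction of -0.33 ± 0.16 (SE), adjusted p = 0.182.

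**Figure D3:**
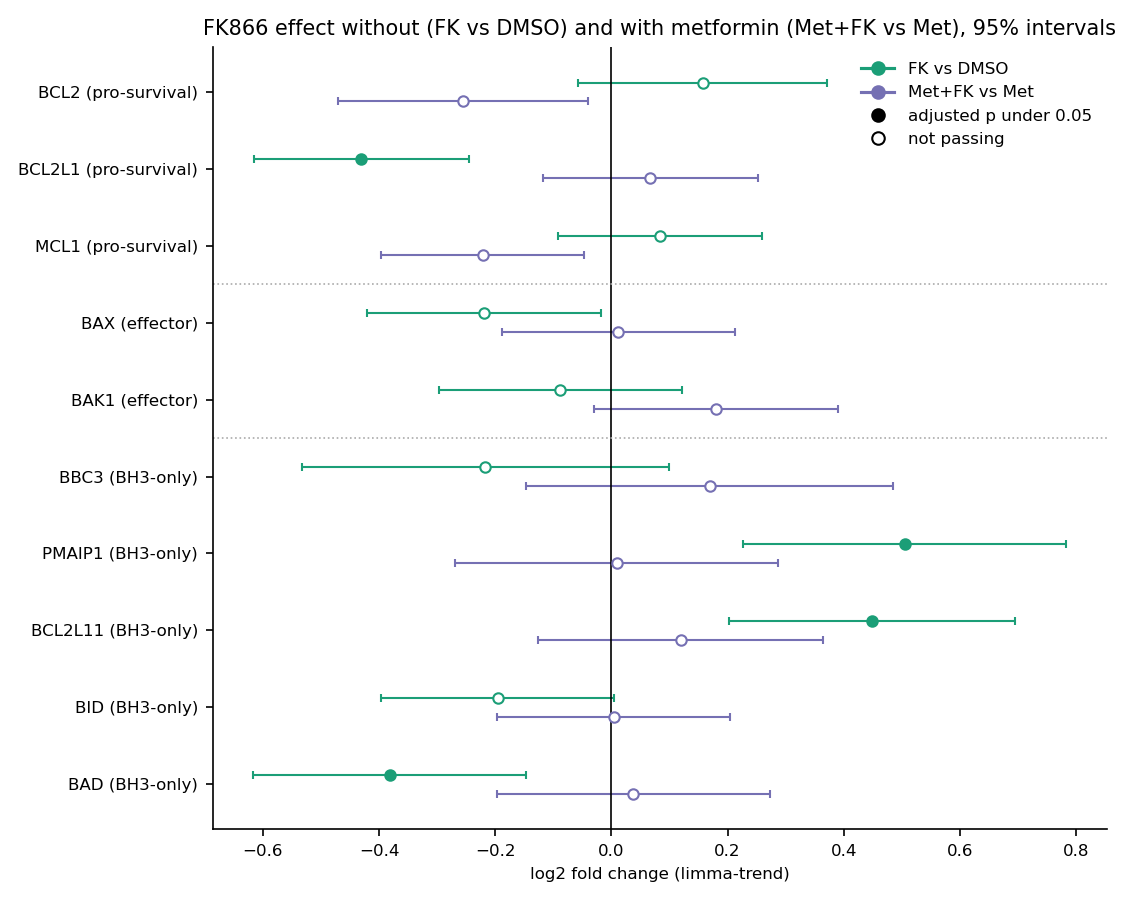
Log2 fold changes for FK866 (horizontal axis) with 95% intervals, without metformin (FK against DMSO) and with it (Met+FK against Met), for the 10 genes in rows by role. Filled points have an adjusted p under 0.05. 4 genes pass without metformin and 0 with it, where 21.1% and 0.0976% of all genes tested do.

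Compared with FK866 alone, the combination carried more BCL2L1, BBC3 and PMAIP1 mRNA and less BCL2L11. These 4 members passed in Met+FK against FK, where 42.1% of all genes tested did, 20.5% higher and 21.7% lower, and each kept its call without each library in turn. The log2 fold changes were 0.67 ± 0.09 (SE) for BCL2L1 (adjusted p = 2.18e-05), 1.69 ± 0.15 (SE) for BBC3 (5.64e-07), 0.46 ± 0.13 (SE) for PMAIP1 (0.0102) and -0.48 ± 0.12 (SE) for BCL2L11 (0.00355). With the GC trend removed 7 members passed, BAX, BAK1 and BAD being lower in addition, and 54.2% of all genes. BBC3 was at 70.8 to 75.5 in FK and 198 to 278 in Met+FK, its widest gap between any of the treatments. Metformin alone against FK866 alone, at the single dose of each, gave 7 members that passed, where 36.7% of all genes tested did. BCL2, BCL2L1, MCL1, BBC3 and PMAIP1 were higher with metformin (17.2% of all genes), and BAK1 and BCL2L11 lower (19.5%). Of these, BCL2L1, MCL1, BBC3 and BCL2L11 kept their calls in every fit without 1 library. BCL2 lost its call without FK replicate 3 or Met replicate 2, PMAIP1 lost its without FK replicate 1, FK replicate 3 or Met replicate 2, and BAK1 lost its in 4 of 6 such fits.

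Within each library, the BH3-only genes were set against the pro-survival genes as the mean log2(normalized count + 1) of the 5 minus that of the 3. This difference depends on gene lengths and is read only between treatments, as a description. It was -2.05, -1.98 and -1.95 in the DMSO libraries and -2.15, -2.15 and -2.06 in the Met libraries, which lay lower in every library. In FK it was -1.91, -1.92 and -1.86, and in Met+FK -1.87, -1.96 and -1.93. FK lay above DMSO in every library, and Met+FK overlapped DMSO. Against DMSO the means shifted by -0.13 for Met, 0.0949 for FK and 0.0768 for Met+FK. Met+FK lay above Met in every library, by 0.20 between means, in a comparison where 0 of 10 members and 0.0976% of all genes passed. Removal of the GC trend made the shift -0.0606 for Met and 0.157 for FK.

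Single pairs with PMAIP1 or BBC3, the members that rose the most with metformin, moved more. PMAIP1 minus MCL1, the BH3-only gene and the pro-survival gene whose proteins pair, was -3.96, -3.83 and -4.24 on the log2 scale in DMSO. It was -3.59, -3.47 and -3.71 in FK, -3.46, -3.38 and -3.55 in Met and -3.30, -3.26 and -3.14 in Met+FK. Each of the 3 treatments lay above DMSO in every library, and Met+FK lay above Met and FK in every library, with a difference of means of 0.23 against Met. In that comparison the log2 fold change was 0.00924 for PMAIP1 and -0.22 for MCL1, so the difference lay in MCL1. Neither gene passed by limma-trend (adjusted p = 0.996 and 0.587). BBC3 minus BCL2L1 was -6.19, -5.76 and -5.74 in DMSO and -5.79, -5.55 and -5.70 in FK, which overlapped. It was -4.71, -4.82 and -4.78 in Met and -4.43, -4.56 and -5.02 in Met+FK, above DMSO and FK in every library and overlapping each other. BAD, whose protein prefers BCL2 and BCL-XL, was not paired in this way and went in the opposite direction. In Met against DMSO its log2 fold change was -0.57, against 0.49 for BCL2 and 0.18 for BCL2L1.

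**Figure D4:**
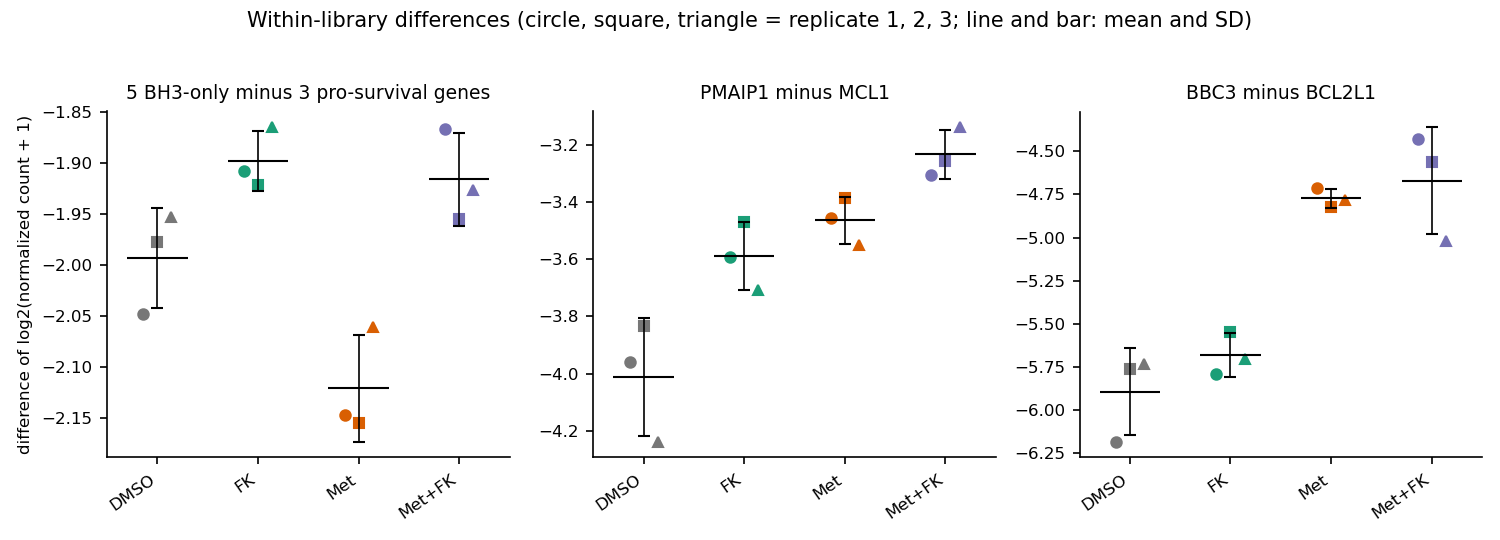
Differences of log2(normalized count + 1) within each library (vertical axes, log2 scale, each panel with its own range that does not start at 0) by treatment; points are libraries, lines and bars the mean and SD of 3. The mean difference of the BH3-only and pro-survival genes is higher by 0.20 in Met+FK than in Met, while BBC3 minus BCL2L1 is higher by 1.12 in Met than in DMSO.

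The rest of the family, 15 further genes, held the largest rise of any BH3-only gene tested. Of the 13 tested, 4 rose and 2 fell with metformin, where 24.9% and 25.9% of all genes tested did. BCL2L10 and BCL2L14 were too low to be tested. The median log2 fold change of the 13 was -0.0657. HRK, the gene of the BH3-only protein Harakiri, had 60.01, 38.4 and 54.2 normalized counts in DMSO and 352, 259.8 and 286 in Met. The groups did not overlap, with a log2 fold change of 2.55 ± 0.18 (SE), adjusted p = 9.62e-08, and the call was kept without each library in turn. The FK libraries had 34.0, 33.6 and 45.9 (-0.41, adjusted p = 0.107), and the Met+FK libraries had 344, 297 and 279. BIK, another BH3-only gene, had 31.2, 22.7 and 23.5 in DMSO and 47.0, 59.5 and 48.7 in Met, a log2 fold change of 0.98 ± 0.26 (SE), adjusted p = 0.00569.

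BCL2L2, the gene of the pro-survival protein BCL-W, rose by 0.26 with metformin (adjusted p = 0.00747), and BNIP3L, the gene of a mitophagy receptor, by 0.65 (adjusted p = 0.00162). BOK, a relative of BAX and BAK, fell by 0.39 with metformin (adjusted p = 0.00391) and fell by 0.43 with FK866 (adjusted p = 0.0194). BCL2L12 fell by 0.65 with metformin (adjusted p = 2.7e-05) and fell by 0.32 with FK866 (adjusted p = 0.0277). With FK866 1 of the 13 rose, BNIP3L, and 2 fell, BOK and BCL2L12, where 11.3% and 9.84% of all genes did. Each of the 3 calls was lost with only the DMSO and FK libraries in the fit. In Met+FK against DMSO 6 rose and 2 fell, where 26.1% of all genes did in each direction. BMF, a BH3-only gene, was among those that rose, at 0.58, adjusted p = 0.0326. That call was kept in 1 of 6 fits without 1 library. BNIP1 also rose, at 0.22, adjusted p = 0.0455, a call kept in 0 of 6 such fits. In Met+FK against Met, 0 of the 13 passed by limma-trend, edgeR or DESeq2, where 0.0976%, 0.104% and 0.475% of all genes did. At an unadjusted p under 0.05 there were 2, BMF and BNIP1, both higher, and 6.84% of all genes.

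BBC3 and PMAIP1, the members that rose the most with metformin, and HRK, the BH3-only gene outside the 10 that rose the most, are shown with their promoters, since all of them rose with metformin. With FK866 PMAIP1 rose, and BBC3 and HRK did not pass. The sequences are those of RefSeq on GRCh38.p14, 250 bases before to 50 after the start that RefSeq gives, read on the strand of the gene. That start lies 99 bases inside the BBC3 span and 48 inside the PMAIP1 span of the count table, and 0 to 1536 bases inside over the members, farthest for BCL2L11. The window of BBC3 lies on the minus strand at chr19:47232618-47232917, PMAIP1 on the plus strand at chr18:59899746-59900045 and HRK on the minus strand at chr12:116881392-116881691. Capitals mark matches, on either strand, to the letters of 4 motifs, namely TGATGNAAN, a response element bound by ATF4 with its C/EBP partners such as CHOP, the cyclic AMP response element TGACGTCA, the shorter TGACGT that lies inside it, and the E-box CACGTG.
BBC3: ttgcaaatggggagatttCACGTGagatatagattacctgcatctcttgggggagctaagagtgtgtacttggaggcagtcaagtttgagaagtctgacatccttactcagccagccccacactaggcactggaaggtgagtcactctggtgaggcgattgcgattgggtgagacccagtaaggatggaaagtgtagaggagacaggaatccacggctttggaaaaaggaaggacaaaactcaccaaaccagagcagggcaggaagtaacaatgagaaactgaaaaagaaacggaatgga
PMAIP1: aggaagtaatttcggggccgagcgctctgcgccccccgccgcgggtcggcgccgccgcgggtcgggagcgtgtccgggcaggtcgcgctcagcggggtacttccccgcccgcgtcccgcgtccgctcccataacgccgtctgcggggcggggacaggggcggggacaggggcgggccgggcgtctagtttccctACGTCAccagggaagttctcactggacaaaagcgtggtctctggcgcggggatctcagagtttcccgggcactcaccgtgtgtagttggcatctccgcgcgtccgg
HRK: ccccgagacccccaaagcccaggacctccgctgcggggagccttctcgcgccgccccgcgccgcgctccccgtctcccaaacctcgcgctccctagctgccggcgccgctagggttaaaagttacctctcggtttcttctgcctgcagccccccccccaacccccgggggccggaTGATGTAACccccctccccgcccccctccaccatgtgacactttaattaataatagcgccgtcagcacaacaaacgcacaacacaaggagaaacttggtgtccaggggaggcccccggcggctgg
The window of HRK held the ATF4 response element letters, 75 bases before the start, as did 3.61% of 35116 promoters of that length. That of PMAIP1 held TGACGT on the opposite strand, 56 bases before the start (7.98% of promoters), and that of BBC3 held an E-box 232 bases before the start (7.26%). No window of the 3 held TGACGTCA (1.85%). BCL2, BCL2L1, BAK1 and BCL2L11 held none of the 4 motifs, BAX held 4 E-boxes, BID had an E-box in 2 of its 5 windows, and BAD held TGACGT in both of its windows. MCL1 has no entry in the table used. A match of letters is a description and shows no binding.

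Transcription factors known to act on these genes moved chiefly with metformin. Of 10 tested, 6 rose and 3 fell in Met against DMSO, where 24.9% and 25.9% of all genes did. ATF4, the effector of the integrated stress response, had 15378, 14771 and 13259 normalized counts in DMSO and 26928, 25882 and 27211 in Met, and rose by 0.88 ± 0.07 (SE), adjusted p = 2.61e-07. DDIT3, the gene of CHOP, had 902, 759 and 713 in DMSO and 6439, 5411 and 4955 in Met. Its groups did not overlap, and it had the largest change of the 10, 2.82 ± 0.13 (SE), adjusted p = 1.58e-09. TP63, the gene of a factor of epithelial stem cells, had the largest fall, a log2 fold change of -1.93 (adjusted p = 0.00085), at low counts. It had 20.8, 19.7 and 23.5 normalized counts in DMSO and 7.32, 3.78 and 4.06 in Met. Its mean over all libraries was 11.4, close to the filter of 10, and its means in Met (5.05) and Met+FK (7.44) lay under that filter. With FK866 alone 3 of the 10 rose, DDIT3, ATF3 and FOXO3, where 11.3% of all genes did. DDIT3 rose by 0.39 (adjusted p = 0.0458).

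ATF3, a stress factor downstream of ATF4, was the only one of the 10 to pass in Met+FK against Met and in the interaction. It had 625, 609.9 and 671 normalized counts in DMSO, 1611, 1719 and 1479.6 in FK, 4030.2, 3792 and 3939.5 in Met and 5911, 6441 and 6230.3 in Met+FK. None of the 4 treatments overlapped another. FK866 added 1.33 ± 0.08 (SE) without metformin (adjusted p = 3.91e-07) and 0.66 ± 0.08 (SE) with it (adjusted p = 0.00272), an interaction of -0.67 ± 0.11 (SE), adjusted p = 0.0407. The interaction passed in 1 of 12 fits without 1 library.

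**Figure D5:**
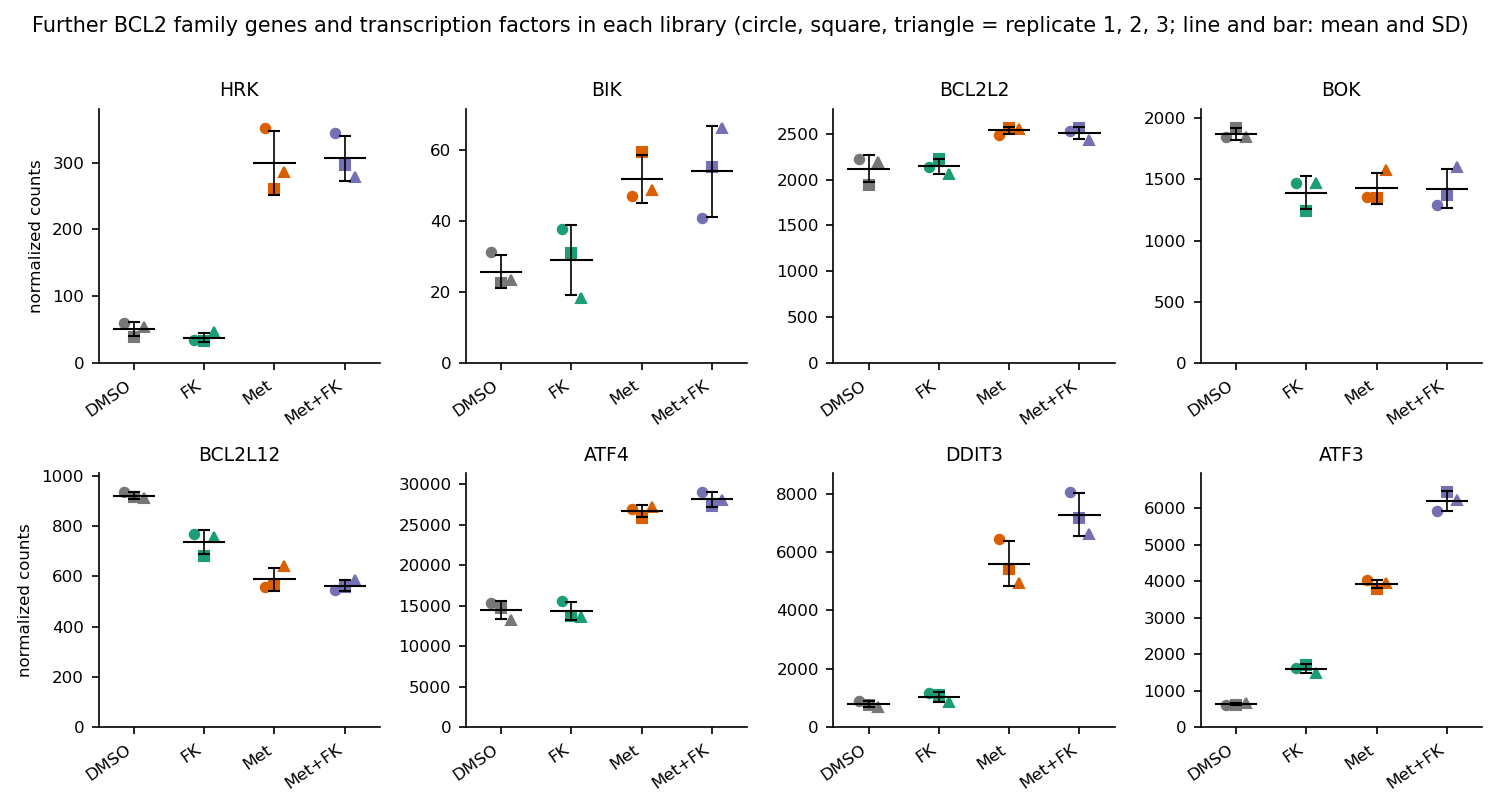
Normalized counts (vertical axes, linear, from 0) of 5 further BCL2 family genes and of ATF4, DDIT3 and ATF3 in the 12 libraries, by treatment; points are libraries, lines and bars the mean and SD of 3. HRK and DDIT3 are several times higher in the 6 libraries with metformin than in the 6 without, and ATF3 is higher in every library with metformin than in any without.

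Genes outside the family that ATF4 and CHOP are known to act on were counted in the same way. Of 13 targets of ATF4 and CHOP, 12 rose with metformin and 1 fell, where 24.9% and 25.9% of all genes did. Their median log2 fold change was 1.22, against 0.0125 over all genes. TRIB3, a pseudokinase induced by CHOP, rose the most (2.63, adjusted p = 1.58e-09), and ATF5 fell (-0.61, adjusted p = 0.000441). With FK866, 6 of the 13 ATF4 and CHOP targets rose, where 11.3% of all genes did, led by ASNS, which makes asparagine (0.83, adjusted p = 0.0109). With only the DMSO and FK libraries in the fit, 2 of the 13 passed by limma-trend, where 0.989% of all genes did. In Met+FK against Met, 0 of the 13 ATF4 and CHOP targets passed by limma-trend, where 0.0976% of all genes did. At an unadjusted p under 0.05 there were 6, 5 higher and 1 lower, and 6.84% of all genes. edgeR called 0 of the 13 and DESeq2 3, where they called 0.104% and 0.475% of all genes.

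Downstream of BAX and BAK, 7 genes of the apoptosome and caspases were tested. With metformin CASP9 and CASP10 rose and CASP2 and CASP6 fell, where 24.9% of all genes tested rose and 25.9% fell. The log2 fold changes ran from -0.67 for CASP2 (adjusted p = 8.73e-06) to 1.64 for CASP10 (adjusted p = 0.00101). CASP10 was near the floor, at 5.77, 13.8 and 10.2 normalized counts in DMSO and 25.1, 25.5 and 48.7 in Met. Its DMSO mean of 9.93 was under the filter of 10, which it passed through the libraries with metformin. With FK866 APAF1, the scaffold of the apoptosome, rose and CASP2 fell, with log2 fold changes of 0.43 for APAF1 (adjusted p = 0.0242) and -0.32 for CASP2 (adjusted p = 0.0231). Of 8 tested inhibitors of apoptosis and their antagonists, 4 rose with metformin, XIAP, BIRC2, BIRC3 and BIRC6, and 1 fell. BIRC2, the gene of the E3 ligase cIAP1, rose by 0.94 (adjusted p = 0.000791), and BIRC5, the gene of survivin, which also acts in mitosis, fell by 1.26 (adjusted p = 1.54e-07). With FK866 XIAP and BIRC6 rose and BIRC5 fell, with log2 fold changes of 0.52 for XIAP (adjusted p = 0.02) and -0.32 for BIRC5 (adjusted p = 0.0374). Over all genes tested, 11.3% rose and 9.84% fell with FK866.

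In the death receptor pathway, which reaches the mitochondrion through BID, 1 of 10 genes tested rose with metformin and 2 fell. Over all genes tested, 24.9% rose and 25.9% fell. TNFRSF10B, the TRAIL receptor DR5 and a known target of CHOP, rose by 0.90 ± 0.07 (SE), adjusted p = 9.34e-08, from 4422, 4231 and 4421 to 8368, 7818 and 8289.9 normalized counts. FADD, the adaptor of the receptors, fell by 0.59 (adjusted p = 0.000256) and fell by 0.37 with FK866 (adjusted p = 0.0293). With FK866 1 of the 10 rose, CFLAR, an inhibitor of caspase-8 (0.26, adjusted p = 0.0343), and 3 fell, where 11.3% and 9.84% of all genes did. The 3 that fell were TNFRSF1A, TNFRSF10B and FADD. TNFRSF10B had 3683, 3456 and 3817 normalized counts in FK, under every DMSO library. Of 6 genes that act on the stability of the MCL1 protein, USP9X, a deubiquitinase, rose with metformin (0.47, adjusted p = 0.00344) and with FK866 (0.55, adjusted p = 0.0157). CDC20, an activator of the anaphase-promoting complex, fell with both (-1.14, adjusted p = 5.33e-07, and -0.36, adjusted p = 0.0292), and USP13 fell with metformin. With only the DMSO and FK libraries in the fit, 0.989% of all genes passed. Whether the FK866 calls of these genes and of the caspases and inhibitors of apoptosis were kept in that fit is not given.

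The genes most like a member across the 12 libraries were named for the member of each role with the largest F statistic, among 11520 genes with a mean of at least 100. For BBC3 they were PLEKHA2, TNFRSF10B and ARHGEF28, with Pearson's r of 0.984, 0.982 and 0.982, and 249 genes had an r over 0.95. For BCL2L1 they were CYHR1, SPOCD1 and CSRP1, at 0.989, 0.985 and 0.985, with 66 genes over 0.95. For BAK1 they were PEX19, IPO4 and SLC25A3, at 0.980, 0.960 and 0.945, with 2 genes over 0.95. These values describe 12 points that share treatments, sequencing depth and the GC trend of their libraries.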

How the data were processed

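Total RNA of KP4 cells, depleted of ribosomal RNA, was sequenced as paired reads in 12 libraries. According to the study's methods, the authors used cutadapt for trimming, RNA STAR for alignment (hg38), featureCounts for pairs per gene with both ends mapped, and DESeq2 for normalization. The annotation and the strand setting are not given in the sources used here. The deposited values are a signal that is never negative, gene counts divided by a size factor per library (0.867 to 1.21), and 100% of them gave whole read pairs within 0.01. Deposited starts count from 0 and 1 was added to them, after which 83.6% of 36366 genes matched GENCODE 44 in start and end. Columns were matched to treatment and replicate by their names.

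The members, the lists and the tests were chosen with earlier results of these data known. Genes were tested with limma-trend (limma 3.58.1, R 4.3.3) on log2(normalized count + 1), on 15376 genes with a mean of at least 10, fitted to the 12 libraries together, with Benjamini-Hochberg adjustment over all genes per comparison. All 10 members were named. Of each other list, counts are given, with the largest and smallest log2 fold change among genes that passed in Met or FK against DMSO, every gene that passed in Met+FK against Met or the interaction, and ATF4, DDIT3 and ATF3. Other family genes could all be named. Some genes are not reported here and were left out of the lists. Likeness was Pearson's r of log2 values. Differences between BH3-only and pro-survival genes were described without a test. GC content and length, known for 99.7% of genes tested, were those of the canonical GENCODE 44 transcript, and the GC correction removed a loess trend (span 0.3) on both from each library. The test was tried on simulated counts first.

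To see whether replicate numbers pair libraries, each library's deviation from its treatment mean was correlated over genes with that of the library of the same number. DMSO with FK gave 0.252, 0.420 and 0.219, and Met with Met+FK gave 0.171, 0.200 and 0.226. All lie over 0.1, so these were read as paired, on the values only. Libraries of different numbers were not correlated, so 0.1 has no reference value. The main test used no replicate block, and the block was run as an alternative. Other pairs of treatments had at least 1 value under 0.1. With the GC trend removed, DMSO with FK stayed over 0.1, FK with Met did too (0.117, 0.142 and 0.122), and Met with Met+FK did not (0.157, 0.0964 and 0.0708). Alternatives were pseudocounts of 0.1 and 10, other filters, equal totals, TMM scaling, only the libraries compared, the replicate block, edgeR 4.0.16 and DESeq2 1.42.0 on recovered reads, the GC correction with and without the block, a 1.5-fold threshold, and each library left out. No depth interval was computed, since the replicates carry the error. No protein sequences are given.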

Additional observations from a re-analysis of the deposited data

Results flagged for a closer look

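ATF3 met the rule for a difference between groups, since its response to FK866 differed with and without metformin by a test of the difference itself. The interaction was -0.67 on the log2 scale (95% interval -0.90 to -0.44), adjusted p = 0.0407 in limma-trend, with the 3 libraries of each treatment apart from those of every other. FK866 raised ATF3 in both settings, by 2.52-fold without metformin and 1.58-fold with it. Without each library in turn the interaction lay between -0.73 and -0.62, and its adjusted p between 0.0366 and 0.181, passing in 1 of 12 fits. With all genes above 0 in the fit it was 0.0609, and with DESeq2 2.07e-05. Among the 10 BCL2 family genes followed here, none passed the interaction in limma-trend (lowest adjusted p = 0.106, for BCL2L1). Groups of 3 libraries were not tested for outliers.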

How the results depend on the processing

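No member's log2 fold change that passed in the main test changed sign. Of those computed under the alternatives, 1191 kept their sign and their side of the threshold, 45 passed where the main test did not, 41 the reverse, and 33 that passed in neither changed sign, 22 of them with all libraries. With the GC trend removed, with or without the replicate block, these were, for FK against DMSO, BCL2 (-0.0429), MCL1 (-0.0383), BAX (0.0125), BAK1 (0.11) and BBC3 (0.0104), for Met+FK against Met, BAX (-0.0187) and BAD (-0.0211), and for the interaction BAX (-0.0312). With equal totals they were, for Met+FK against Met, BAX (-0.0271), PMAIP1 (-0.0301), BID (-0.0354) and BAD (-0.0017), and for Met+FK against DMSO BCL2L11 (0.0483). With DESeq2 PMAIP1 did so in Met+FK against Met (-0.00249). Without 1 library, values crossed 0 for BAK1 in FK against DMSO (-0.19 to 0.00966) and Met+FK against FK (-0.19 to 0.00562), for BCL2L11 in Met+FK against DMSO (-0.13 to 0.0544), and in Met+FK against Met for BAX (-0.0376 to 0.0518), PMAIP1 (-0.10 to 0.0925), BID (-0.0478 to 0.0432) and BAD (-0.0377 to 0.10). With the 1.5-fold threshold the members passing were 2 for Met, 0 for FK and 2 for Met+FK against DMSO, 2 for Met+FK against FK and 3 for Met against FK, by the construction of that rule. With only the libraries compared, 0 passed for FK against DMSO. After removal of the GC trend, 2 passed for FK against DMSO and 7 for Met+FK against FK, where 10.9% and 54.2% of all genes did. With the replicate block added, 9 passed for Met+FK against FK, 1 for Met+FK against Met and 1 for the interaction. The shares of all genes there were 58.9%, 3.39% and 6.94%. The replicate block alone gave 5 for the interaction, and DESeq2 gave 1, where 32% and 5.67% of all genes passed. The cause of these shifts was not tested. Without 1 library, the members passing were 7 to 8 for Met, 0 to 5 for FK and 5 to 6 for Met+FK against DMSO, 0 for Met+FK against Met, 4 to 5 for Met+FK against FK, 4 to 9 for Met against FK and 0 to 2 for the interaction, which reached 2 without FK replicate 1. These fits called, of all genes, 6514 to 7959 for Met, 133 to 4943 for FK and 6683 to 7765 for Met+FK against DMSO. They called 2 to 10 for Met+FK against Met and 5330 to 6362 for Met+FK against FK. Met against FK had 4496 to 5799 and the interaction 0 to 1845. Over all genes, FK against DMSO called 3251 genes, 6854 with the replicate block, 152 with only the libraries compared, and 133 without DMSO replicate 1. The replicate block added BAX in FK against DMSO, BCL2L1 in Met against DMSO (adjusted p = 0.0269), and BCL2 (0.0272) and MCL1 (0.0138) in Met+FK against DMSO, beside the 5 in the interaction. It ended no member's call and added none in Met+FK against Met.

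The mean difference of BH3-only and pro-survival genes against DMSO, with the GC trend removed, was -0.0606 for Met, 0.157 for FK and 0.131 for Met+FK, against -0.13, 0.0949 and 0.0768 in the main values. Equal library totals shifted the all-gene median of Met against DMSO from 0.0125 to 0.13 on the log2 scale, so falls are smaller and rises larger on that scale. Under that scaling BAX lost its call for metformin. With 3 libraries a treatment and a smallest exact permutation p of 0.10, single genes were tested only through the fit over all genes.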
